A study of Mus musculus with 2 samples.

Results

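The microRNAs miR-193a-3p, miR-193b-3p, miR-365-3p, miR-378a-3p and miR-378a-5p were examined in unwounded mouse skin and oral mucosa. They were taken by name, as microRNAs known from fat cell biology, and all 5 have a probe among the 1892 microRNA probes of the array. They and the lists set beside them were chosen with earlier results of these data known. Skin and oral mucosa were each profiled on 1 single-colour array, with 2 µg of total RNA pooled from matched specimens of 3 animals. The mice of the study's wound models were young adult female Balb/c, and strain, sex and age are not given separately for the array samples. The series title speaks of epithelium, whereas the sample labels name skin and oral mucosa, and neither states whether dermis and the fat beneath it were included. Because each tissue is 1 pool on 1 array, there is no replicate across animals and no test between the tissues. Errors given for a microRNA are SDs from its 2 repeat spots unless stated otherwise and cover technical error within an array only.

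MicroRNAs are short RNAs that lower the output of messenger RNAs, which they recognise mainly through the seed, bases 2 to 8 from the 5′ end. Mouse miR-193b and miR-365 are made from neighbouring genes and are known from the differentiation of brown fat cells, and miR-193a is the closest relative of miR-193b. MiR-378a lies within Ppargc1b, the gene of a coactivator of mitochondrial metabolism, and both of its arms are known from the control of energy use in fat and muscle. None of these microRNAs marks fat cells alone.

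The mature sequences of the 3 members with higher signal on the skin array are shown because their relation decides what each probe can tell apart. They are RefSeq sequences on GRCm38.p6, identical to the targets given in the array files, written 5′ to 3′ with the seed in capitals.
mmu-miR-193a-3p: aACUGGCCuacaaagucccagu
mmu-miR-193b-3p: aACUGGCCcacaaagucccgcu
mmu-miR-365-3p: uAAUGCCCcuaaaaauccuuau
MiR-193a-3p and miR-193b-3p share their seed, and no other probe on the array has it. Counted from the 5′ end they differ at 3 of 22 positions, U9C, A20G and G21C, all outside the seed. Whether either probe also bound the other microRNA was not tested. MiR-365-3p has a seed found on no other probe. It is made from both Mir365-1 (chr16:13453840-13453926, plus strand) and Mir365-2 (chr11:79726400-79726511, plus strand) with the same mature sequence, so that its signal cannot be assigned to either gene. Mir365-1 lies 4238 bases downstream of Mir193b (chr16:13449523-13449601), between the protein-coding genes Mrtfb and Parn, and both overlap the predicted genes Gm32817 and Gm53058, in which exon and intron were not assigned here. Mir365-2 lies 14365 bases downstream of Mir193a (chr11:79711969-79712034), between Rab11fip4 and Utp6, and neither overlaps an annotated gene other than its own. All 3 members in this group thus come from these 2 pairs of neighbouring genes.

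The deposited signal is the median brightness of each spot in scanner units, from which no background had been taken. Empty spots, 16 per array, averaged 36.4 ± 7.84 in skin and 51.9 ± 6.65 in oral mucosa (SD over the 16 spots). Detection required a mean signal more than 3 SD over these empty spots, a limit of 59.9 for skin and 71.8 for oral mucosa. Of the 5 members, miR-193a-3p, miR-193b-3p, miR-365-3p and miR-378a-3p were detected on both arrays, and miR-378a-5p on neither.

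MiR-193b-3p, which is known to favour the brown fat cell programme, gave higher signal on the skin array. Its spots read 748 and 698 on the skin array (mean 723 ± 35.5, SD of 2 spots) and 378.2 and 346 on the oral mucosa array (362 ± 22.7). The spots of the arrays did not overlap. After Variance Stabilizing Normalization (VSN), in which every array gets a fitted offset and scale, the log2 difference of oral mucosa minus skin was -1.57 (SD 0.13), or 2.98-fold higher signal in skin. In these pooled tissues fewer cells that make a microRNA and less of it per cell cannot be told apart.

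MiR-193a-3p, which shares the seed but comes from another chromosome, differed in the same direction. It read 721 and 609 on the skin array (665 ± 79.2) against 442 and 422 on the oral mucosa array (432 ± 14.1). Again the lowest skin spot was above the highest oral mucosa spot. The log2 difference was -1.16 (SD 0.19), or 2.23-fold higher in skin. It was smaller in size than that of miR-193b-3p on these arrays, and miR-193b-3p minus miR-193a-3p was -0.42 (SD 0.23). An SD from repeat spots does not settle their order in the tissues. The first spots of both miR-193 probes stand in column 3, beside the edge columns 1 and 2, and the second in column 18. Leaving out the spots of columns 1 and 2 before the fit moved neither difference by more than its SD. As this removed no miR-193 spot, it cannot show whether nearness to the edge changed the spots in column 3.

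MiR-365-3p, the partner of both miR-193 genes, read 177 and 115 on the skin array (146 ± 43.6) against 80.0 and 72.8 on the oral mucosa array (76.4 ± 5.07). The skin spots were both brighter, but they lay far apart, and the dimmer of them was uneven, with an SD of 38.3 over its pixels against 7.89 for the other. The log2 difference was -2.30 (SD 0.64), or 4.91-fold higher in skin. The oral mucosa signal was only 1.06 times the detection limit. The size of the difference was -1.39 on plain signals scaled to the 75th percentile of all probes, and -2.33 with the empty spots subtracted and scaling to that percentile of the microRNAs detected on both arrays. With the empty spots subtracted and scaling on spike calibration or 5S ribosomal RNA probes it was -2.48 or -2.41. Plain signals gave -0.94 without normalization and -1.24 with median scaling. The size thus depended on whether background was subtracted. The oral mucosa signal of 76.4 stood near the empty-spot mean of 51.9. Which size is nearer that of the tissues was not tested. The size of the difference of miR-365-3p therefore could not be set apart from that of miR-193b-3p, as their differences were -0.72 apart with an SD of 0.66.

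MiR-378a-3p, the main arm of miR-378a and known as a regulator of oxidative metabolism, lay on the other side. Its spots read 126 and 108 on the skin array (117 ± 13.0) against 198 and 213 on the oral mucosa array (206 ± 10.7), without overlap. The log2 difference was 0.55 (SD 0.26), or 1.46-fold higher in oral mucosa. MiR-378a-5p, the other arm of the same precursor, read 55.3 and 49.7 in skin, against 68.8 and 71.1 in oral mucosa. Both means, 52.5 and 69.9, were under the detection limit of their array, and no difference was computed.

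**Figure D1:**
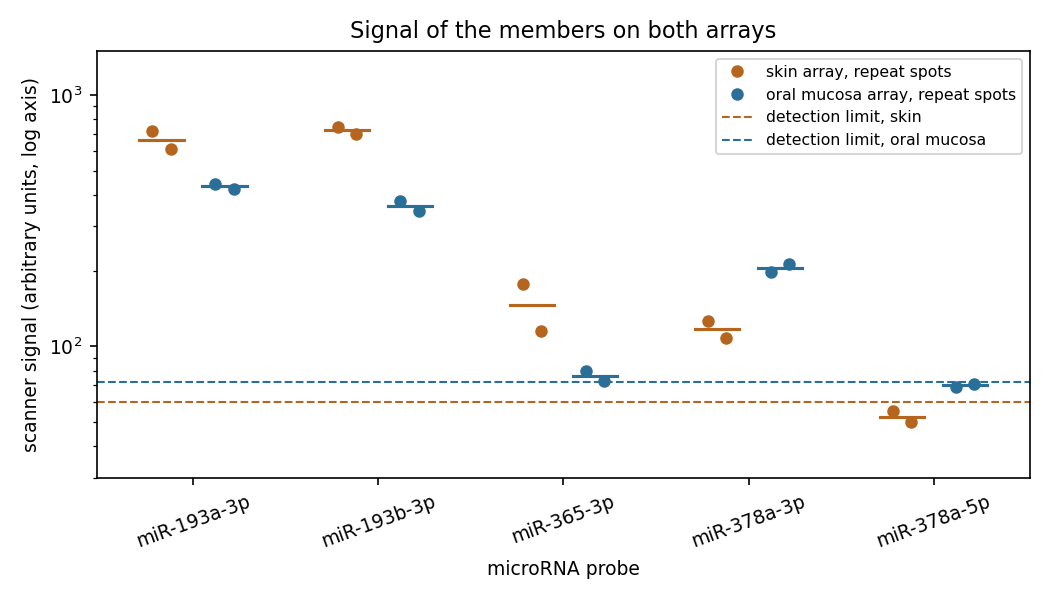
Scanner signal (arbitrary units, log axis) of the 2 repeat spots of each member in skin (brown) and oral mucosa (blue), with short lines at the means and dashed lines at the detection limits of 59.9 and 71.8. The skin spots of miR-193a-3p, miR-193b-3p and miR-365-3p lie above the oral mucosa spots, those of miR-378a-3p lie below, and the means of miR-378a-5p are each under the limit of their own array.

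Since no test was possible, a size rule was used, a VSN log2 difference of 1 or more in either direction, which is a 2-fold change. By this rule 3 members, miR-193a-3p, miR-193b-3p and miR-365-3p, were higher in skin and 0 in oral mucosa, of the 4 detected. For comparison, 14.5% of the 394 microRNAs detected on both arrays were higher in skin and 11.9% in oral mucosa. Over the 562 detected on at least 1 array these shares were 14.8% and 13.7%. The median difference over the 4 detected members was -1.37, beside -0.06 over all 394. Ranked from the largest difference toward skin, miR-365-3p stood at place 10, miR-193b-3p at 25, miR-193a-3p at 46 and miR-378a-3p at 304 of 394. With median scaling, 75th percentile scaling, no normalization or VSN started at offset 0, miR-193b-3p had a larger difference than miR-365-3p. These settings differ only by a constant on the log2 scale, so the order is the same in each and counts as 1 observation. These counts, medians and ranks describe 2 pools and members chosen with earlier results known, and no test stands behind them.

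**Figure D2:**
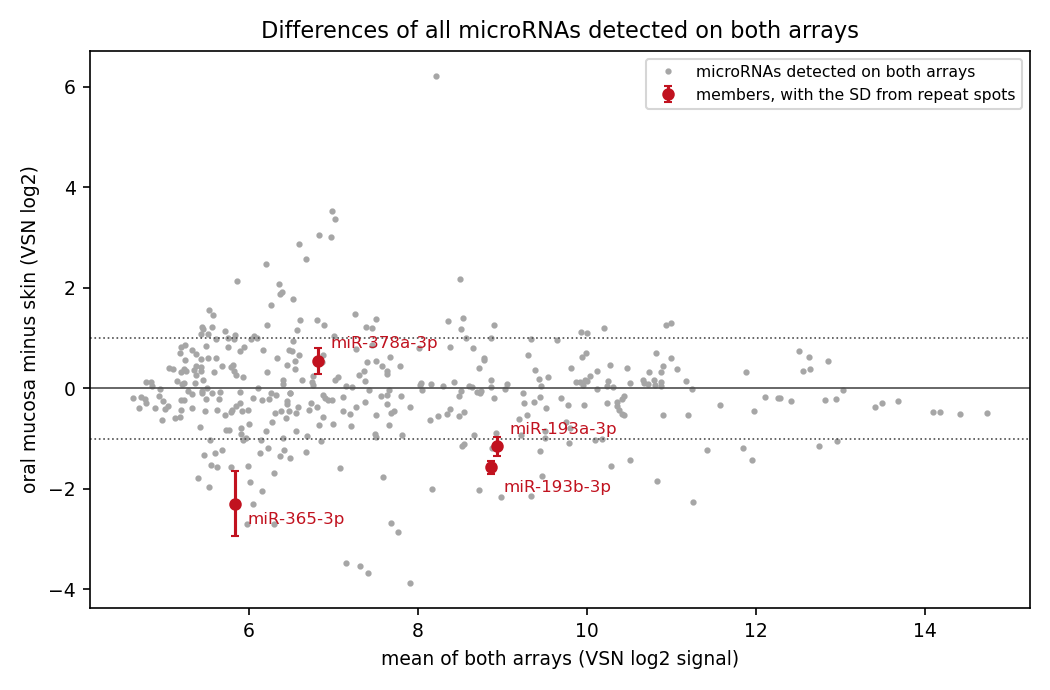
VSN log2 difference, oral mucosa minus skin, against the mean of both arrays for the 394 microRNAs detected on both (grey), with the 4 detected members in red and their SD from repeat spots. Dotted lines mark the size rule of 1, which miR-365-3p, miR-193b-3p and miR-193a-3p pass toward skin and miR-378a-3p does not pass.

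The size of these differences varied with the processing. The oral mucosa array was brighter as a whole, with a median probe signal of 52.2 against 42.2, and VSN gave it a scale 1.37 times that of the skin array. The uncorrected signals of the miR-193 and miR-365 probes were nevertheless higher on the skin array, by 1.54 times for miR-193a-3p, 2.00 times for miR-193b-3p and 1.91 times for miR-365-3p. The 11 other normalizations and background treatments run kept the direction of all 4 detected members. They are not 11 separate checks. Median scaling, percentile scaling, no normalization and VSN started at offset 0 differ only by a constant on the log2 scale. So do the settings with the empty spots subtracted. Normexp and omission of columns 1 and 2 gave nearly the VSN values. Scaling lowered the brighter oral mucosa array, so it could not turn the sign of members with higher uncorrected signal in skin. It could have turned that of miR-378a-3p, and did not. MiR-193b-3p and miR-365-3p stayed past the size rule in 10 of the 11 and fell short in the one without normalization, where the median of all detected microRNAs itself stood at 0.40. MiR-193a-3p passed it in 4 of the 11 and was as small as -0.62. MiR-378a-3p ranged from 0.32 to 0.81 and passed it in 0.

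**Figure D3:**
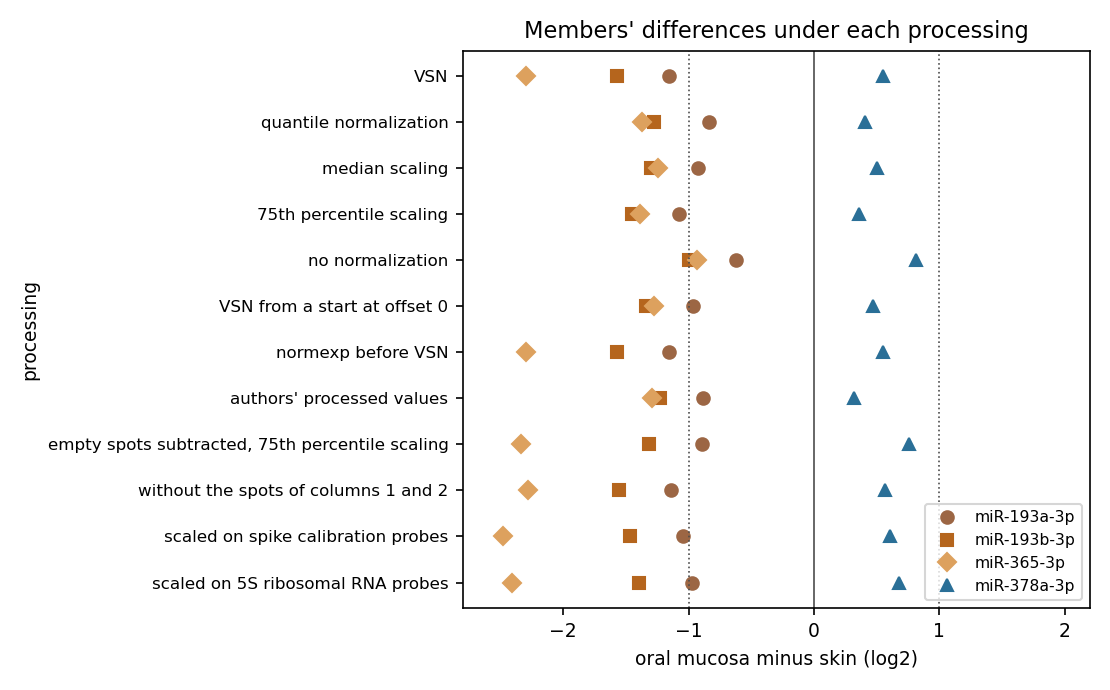
Log2 difference, oral mucosa minus skin, of the 4 detected members (symbols) under VSN and 11 other ways of processing the signals, with dotted lines at the size rule. MiR-193a-3p, miR-193b-3p and miR-365-3p lie left of 0 and miR-378a-3p right of 0 in every row, and without normalization none passes the rule.

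The probes around each member were read as well. Other microRNAs detected on both arrays within 3 rows and 3 columns of the spots, without the members, their 5p arms and the miR-378 relatives, had a median difference of -0.22 for miR-193b-3p (11 probes), -0.25 for miR-193a-3p (8 probes) and -0.06 for miR-365-3p (11 probes). Their own differences were -1.57, -1.16 and -2.30. Around miR-378a-3p the median was 0.41 over 19 probes, close to its own 0.55. The part of the surroundings in the members' values was not tested.

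The other arms of the same precursors were read next. They are shown because the 5p arms of Mir365-1 and Mir365-2, unlike the 3p arms, differ in sequence, though whether either 5p probe also binds the other arm was not tested. RefSeq gives them on GRCm38.p6, with bases 2 to 8 in capitals.
mmu-miR-193a-5p: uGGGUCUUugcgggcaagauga
mmu-miR-193b-5p: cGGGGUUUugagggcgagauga
mmu-miR-365-1-5p: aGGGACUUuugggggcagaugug
mmu-miR-365-2-5p: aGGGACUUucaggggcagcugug
None of the 4 was detected on either array. MiR-193a-5p read 47.8 ± 0.98 in skin and 68.4 ± 5.29 in oral mucosa, and miR-193b-5p 47.6 ± 2.02 and 54.4 ± 1.92. MiR-365-1-5p read 46.0 ± 4.07 and 70.0 ± 3.46, and miR-365-2-5p 40.9 ± 1.87 and 57.7 ± 1.53. On the skin array all 4 lay between the mean of the empty spots and the limit. Without a detected 5p arm, the shares of the 2 miR-365 genes could not be read.

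The array also carries miR-378b, miR-378c and miR-378d, which come from other genes and resemble miR-378a-3p closely. Of the 21 bases of miR-378a-3p on this array, 20 match miR-378c, 20 match miR-378d and 19 match miR-378b, and only miR-378c has the same seed at the same place. All 3 were detected on both arrays, and none passed the size rule. MiR-378b read 98.2 ± 4.47 in skin and 184.9 ± 2.84 in oral mucosa, giving a log2 difference of 0.74 (SD 0.11). MiR-378c read 93.6 ± 5.49 and 163 ± 0.24, a difference of 0.61 (SD 0.14). MiR-378d read 68.2 ± 8.55 and 102.9 ± 8.73, a difference of 0.44 (SD 0.47). The skin signal of miR-378d was only 1.14 times the detection limit. Together with miR-378a-3p the differences ran from 0.44 to 0.74. All 4 were above 0 under each of the 11 other ways of processing, none of which corrects a spot for its place on the array. The first spots of the 5 miR-378 probes stand in 1 column in consecutive rows, and so do the second, so that they share their surroundings. The surrounding probes, 17 for each, had a median difference of 0.56 for miR-378b, 0.41 for miR-378c and 0.26 for miR-378d. The part of the surroundings in these differences was not tested. Whether the probes read 1 common RNA was not tested.

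**Figure D4:**
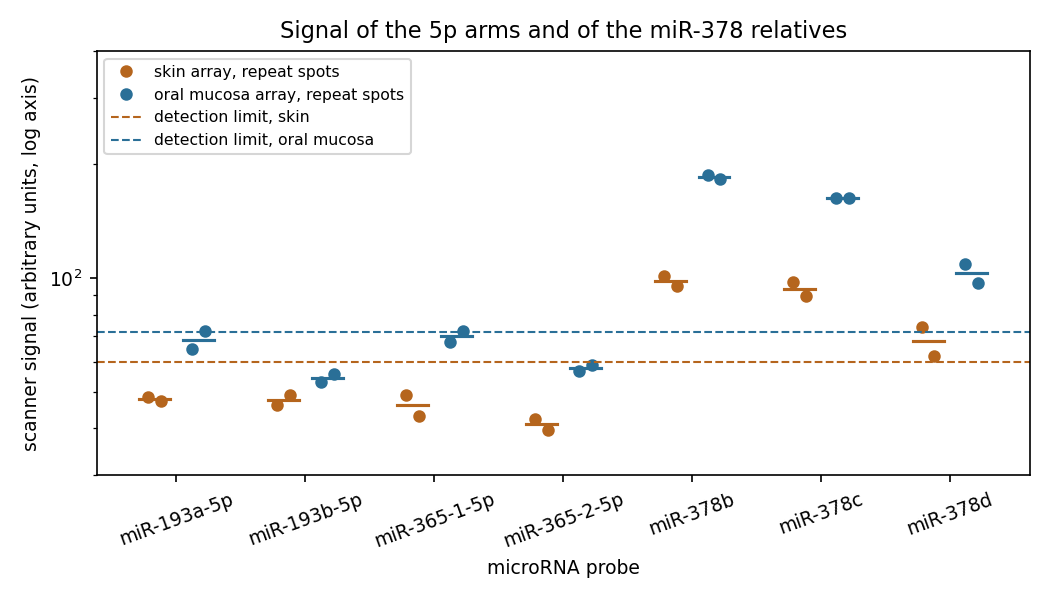
Scanner signal (arbitrary units, log axis) of the repeat spots of the 4 undetected 5p arms and of miR-378b, miR-378c and miR-378d in skin (brown) and oral mucosa (blue), with short lines at the means and dashed lines at the detection limits. The means of the 5p arms are under the limit of their own array, and the oral mucosa spots of the miR-378 relatives lie above their skin spots.

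Other microRNAs known from fat cells were read beside miR-193 and miR-365. Lists of microRNAs reported to favour adipogenesis, to oppose it, or to act in brown or beige fat hold 39 probes, of which 34 were detected on at least 1 array. The lists, too, were chosen with earlier results of these data known, so their counts only describe. Of these, 26 passed in neither direction, 2 were higher in skin (5.88%) and 6 in oral mucosa (17.6%), against 14.8% and 13.7% of all detected microRNAs. Their median difference was 0.16, above 0 under all 11 other ways of processing. With those 11 ways, 1 to 2 of the fat-cell microRNAs were higher in skin and 5 to 8 in oral mucosa. Over all detected microRNAs, 83 were higher in skin and 77 in oral mucosa with VSN. With the other ways these counts ran from 22 to 87 and from 36 to 92, so the shares set beside the lists hold for VSN only. In the list favouring adipogenesis, 1 of 15 was higher in skin and 2 in oral mucosa. MiR-146b-5p, also known as a brake on inflammatory signalling, differed by -2.71 (SD 0.30) toward skin and by -2.90 to -1.22 under the other ways of processing, with an oral mucosa signal just above the limit of 71.8. MiR-375-3p, best known from pancreatic islets, differed by 2.07 (SD 0.41) toward oral mucosa, with a range of 1.22 to 2.26 and a skin signal of 71.8. MiR-143-3p, a microRNA of smooth muscle and stroma, was detected in oral mucosa only, 2.02 above the lowest detected skin value on the VSN log2 scale and 1.04 to 2.15 under the other ways of processing.

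In the list opposing adipogenesis, 0 of 9 detected were higher in skin and 3 in oral mucosa, beside 14.8% and 13.7% of all 562 detected. These were miR-145a-5p, the cluster partner of miR-143, with 1.78 (SD 0.21), and the neighbours miR-222-3p and miR-221-3p, with 1.34 (SD 0.14) and 1.26 (SD 0.13). In the brown and beige fat list, 1 of 10 was higher in each tissue. MiR-196a-5p, which is encoded in Hox gene clusters, was detected in skin only, with -1.68 against the lowest detected oral mucosa value. It ran from -1.94 to -0.45 under the 11 other ways of processing and fell short of the size rule in 6. MiR-328-3p differed by 1.16 (SD 0.24) toward oral mucosa and passed in 6 of the 11. MiR-133a-3p, a microRNA of striated muscle that opposes brown fat formation, was detected in oral mucosa only, 0.71 above the lowest detected skin value. As its own skin signal was under the limit, 0.71 is measured from that floor and does not settle whether the tissues differed 2-fold, and the same holds for miR-133b-3p and miR-204-5p among those that passed in neither direction. Of the fat-cell lists, miR-203-3p, miR-143-3p, miR-145a-5p, miR-133a-3p, miR-133b-3p and miR-155-5p are also among the markers of other cell types, and how much fat either sample held was not tested.

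Marker microRNAs of other cell types were read beside the members. Their summed signals are scanner units as deposited, background and the brighter scale of the oral mucosa array included, and are given as levels with no comparison of the tissues. The epithelial markers of the miR-200 family with miR-203 and miR-205 were detected on both arrays, 7 of 7, with summed signals of 49225 for skin and 48779 for oral mucosa and miR-205-5p the brightest. Their median difference was -0.48, and between -0.47 and 0 under the 11 other ways of processing. Of them miR-200c-3p differed by -1.22 (SD 0.46), miR-429-3p by 1.12 (SD 0.89) and miR-200a-3p by 0.70 (SD 0.09).

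All 5 mesenchymal markers, which include miR-143-3p and miR-145a-5p of the fat-cell lists, were higher in oral mucosa (4 or 5 under the 11 other ways of processing), beside 13.7% of all 562 detected microRNAs, with a median of 1.78 and summed signals of 516 for skin and 1871 for oral mucosa, led by miR-214-3p, the brightest, at 2.17 (SD 0.19). MiR-126a-3p of endothelium was detected in oral mucosa only (summed signals of both arms 81.6, all from undetected probes, and 200.2), while miR-126a-5p was detected on neither array. MiR-451a of red blood cells differed by 6.21 (SD 0.37), with a range of 5.01 to 6.43 and a skin signal of 67.3 near the limit of 59.9. MiR-486a-5p, read through the probe of miR-3107-5p that the array files assign to both, was detected in oral mucosa only, 1.23 above the lowest detected skin value, and passed the size rule in 5 of the 11 other ways of processing. MiR-144-3p and miR-144-5p were undetected, and the 4 red cell probes summed to 189 and 3272. MiR-150-5p of lymphocytes was detected in oral mucosa only, 2.73 above the lowest detected skin value on the log2 scale. MiR-142a-3p and miR-142a-5p, which the array carries under their older names miR-142-3p and miR-142-5p, were undetected, as were miR-155-5p and miR-223-3p, and the 5 immune cell probes summed to 222 in skin, all from undetected probes, and 459 in oral mucosa. Of 6 skeletal muscle markers, a tissue rich in miR-378a, 3 were detected, with summed signals of 377 for skin and 519 for oral mucosa. MiR-206-3p was the brightest of them on both arrays, with a difference of -0.19 (SD 0.36), and miR-133a-3p and miR-133b-3p, detected in oral mucosa only, lay 0.71 and 0.53 above the lowest detected skin value, which leaves their size against skin unmeasured. MiR-1a-3p, miR-208b-3p and miR-499-5p were undetected. The part of cell makeup in the members' differences was not tested.

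**Figure D5:**
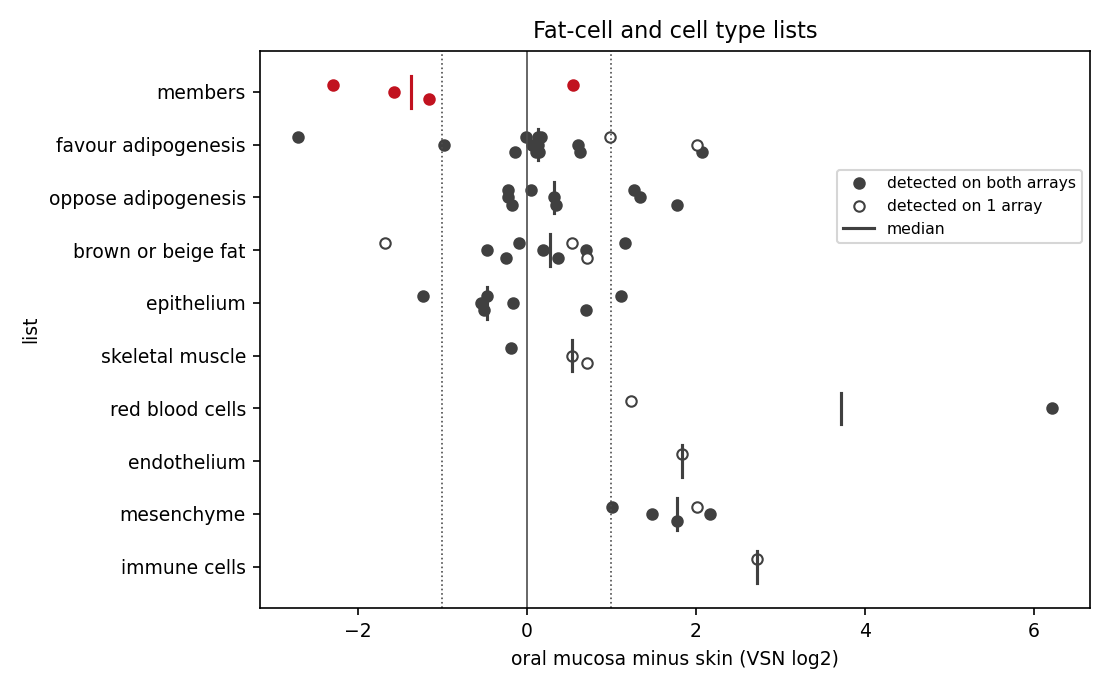
VSN log2 difference, oral mucosa minus skin, of each detected microRNA among the members (red) and in the fat-cell and cell type lists (dark grey), with open circles for those detected on 1 array, set against the lowest detected signal of the other, and bars at the medians. The median of the members is -1.37, those of the 3 fat-cell lists lie between 0.13 and 0.32, and all 5 mesenchymal markers lie past the dotted line at 1.

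The microRNAs most like each member in level on both arrays were found by the distance between their pairs of VSN values, over 2 arrays. For miR-193a-3p they were miR-5107-5p (distance 0.10), miR-669l-5p (0.19) and miR-193b-3p (0.32), the last of which is its seed partner. For miR-193b-3p they were miR-5107-5p (0.27), miR-193a-3p (0.32) and miR-7028-5p (0.36). For miR-365-3p they were miR-7052-5p (0.30), miR-146b-5p (0.35) and miR-676-3p (0.39). For miR-378a-3p they were miR-7658-5p (0.07), miR-7661-3p (0.12) and miR-34c-3p (0.22). Such likeness includes how brightly each probe binds, and over 2 arrays it says nothing of shared control.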

How the data were processed

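Total RNA was tailed, tagged and hybridized to 1 Cy5 array per tissue. The authors deposited the scanner intensity of each spot, without background subtraction or scaling between arrays, and 1 processed intensity per microRNA in whole numbers, by a method not given in the sources used here. The processed values have a median of 4 on each array.

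Each probe was given the mean of its 2 repeat spots. Control spots were kept out of the microRNA values and served for the detection limit, for normexp, for the subtraction of the empty spots and for the scalings on controls. VSN, the normalization named in the study's methods, was written in Python 3.11.15 (numpy 2.4.6, scipy 1.17.1, pandas 2.3.3) by least trimmed squares from several starts, with probes cut by mean signal into 5 slices and the best-fitting 90% of each kept, save the dimmest slice, used whole. Normexp used limma 3.58.1 in R 4.3.3 with an offset of 50. The procedure was run on simulated arrays built with the offsets and scale of the same fit. Such a run cannot show whether VSN suits these 2 arrays. The methods' CyberT test was not run, since repeat spots compare arrays and not tissues. With 1 array per tissue the number of arrays limits the precision.

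Where only 1 array detected a microRNA, its value on the other array was raised to the lowest detected value there if it lay below. The members and lists were chosen with earlier results of these data known. Named were all members, the other arms and miR-378 relatives, the 3 probes most alike to each detected member, and in each list the 3 largest differences and, for fat-cell lists, all past the size rule. Alternatives were quantile, median and 75th percentile scaling, no normalization, VSN started at offset 0, normexp, the processed values as log2(value + 50), subtraction of the empty spots, omission of columns 1 and 2, and other thresholds and filters. The miR-142a probes were matched by sequence to RefSeq and the miR-486a-5p probe by the names in the array files. RefSeq sequences on GRCm38.p6 matched 3 of the 5 members and all 4 5p arms.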

Additional observations from a re-analysis of the deposited data

How the results depend on the processing

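No paired analysis was possible because skin and oral mucosa had a single array each, and for the same reason no replicate could be left out. Scaling on control probes was added once the data had been seen. The cause of the shifts given here was not tested, apart from the thresholds and filters, whose construction sets the counts. The size for miR-365-3p depended on subtraction of the background, as given above. Values are given for miR-193a-3p, miR-193b-3p and miR-365-3p in this order, then the median over the detected members, beside -1.16, -1.57, -2.30 and -1.37 with VSN. With quantile normalization they were -0.84, -1.27, -1.37 and -1.06. With median scaling they were -0.93, -1.30, -1.24 and -1.08. With 75th percentile scaling miR-365-3p was -1.39 and the median -1.23. Without normalization they were -0.62, -0.998, -0.94 and -0.78, miR-378a-3p was 0.81, and 0 members passed the size rule. With VSN started at offset 0 they were -0.96, -1.34, -1.28 and -1.12. With the authors' processed values as log2(value + 50) they were -0.88, -1.23, -1.29 and -1.06. Adding 50 shrinks low values, and the processed values themselves were 1.97, 2.58 and 5.36 times as high in skin for miR-193a-3p, miR-193b-3p and miR-365-3p (134 against 25). With the empty spots subtracted miR-193a-3p was -0.90, miR-193b-3p -1.32 and the median -1.11. Scaled on 17 spike calibration probes the median was -1.25, and on 5 probes of 5S ribosomal RNA it was -1.18 with miR-193b-3p at -1.39. At the 4-fold threshold 1 member passed. Normexp before VSN and omission of columns 1 and 2, which hold no spot of a member, moved no member's difference by more than its SD. MiR-378a-5p had no value, as it was detected on neither array. The count over the whole array, 160 with VSN, was 80 with quantile normalization, 85 with median scaling, 85 with 75th percentile scaling, 102 without normalization, 85 with VSN started at offset 0 and 87 with the processed values. It was 256 at 1.5-fold, 46 at 4-fold, 104 with detection on both arrays and 577 without a filter. The median over all detected microRNAs was 0.40 without normalization, and 78.4% of the calls were then toward oral mucosa, against 48.1% with VSN. Signal near the detection limit bounds what can be said of miR-365-3p and miR-146b-5p in oral mucosa, of miR-451a in skin, of miR-378a-5p and of the 5p arms.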
